A study of Mus musculus with 12 samples.

Results

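The genes described here are 34 members of the nuclear receptor family in mouse liver, taken by gene symbol from a fixed list; the rule used no measured value, though the list was drawn up with earlier results of these data known. They are the lipid sensors Ppara and Ppard, the retinoid receptors Rara, Rarg, Rxra, Rxrb and Rxrg, the ROR genes Rora and Rorb, the vitamin D receptor gene Vdr, and the xenobiotic sensors Nr1i2 and Nr1i3. The steroid receptors Esr1, Esr2, Pgr, Nr3c1 and Nr3c2 and the estrogen-related receptors Esrra, Esrrb and Esrrg belong to them too. The rest are the HNF genes and the orphan receptors Hnf4a, Hnf4g, Nr2c1, Nr2c2, Nr2e1, Nr2e3, Nr2f1, Nr2f2, Nr2f6, Nr4a2, Nr4a3, Nr5a1, Nr6a1 and Nr0b1. A transcript cluster, the set of probes the array assigns to 1 transcription unit, carried the symbol of 33 of the 34 genes, with 1 cluster per gene. Nr2e3 was not analysed here. The 33 stand among 21789 clusters with exactly 1 gene symbol.

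Liver RNA was hybridised to 12 Affymetrix Gene 1.0 ST arrays in 4 groups of 3. The groups were control euthyroid (replicates 13, 14 and 15), control hypothyroid (17, 18 and 20), mutant euthyroid (2, 3 and 4) and mutant hypothyroid (5, 6 and 7). The mutants are L-NCoR∆ID mice, in which the liver makes an altered form of the nuclear receptor corepressor NCoR; as the model is known, a Cre driven by the albumin promoter acts in hepatocytes and the altered protein lacks part of the domains that bind receptors. The labels give no strain, age or sex, do not say how hypothyroidism was produced, and do not say that each array is a separate mouse, so p-values measure the spread between these arrays. No cluster carried the symbol of the altered gene, so the genotype labels were not checked by it. The hepatocyte markers lay at 9.77 to 13.49 log2 (6 of 6 measured), far above the array medians of 4.16 to 4.32. Correlations between arrays of 1 group were 0.975 to 0.993. The SD of the values within an array ran from 2.22 to 2.28 in control euthyroid, 2.29 to 2.30 in control hypothyroid, 2.26 to 2.31 in mutant euthyroid and 2.32 to 2.35 in mutant hypothyroid livers, so it moved with the groups.

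Nuclear receptors are transcription factors that bind DNA directly, and most of them change activity when a small lipophilic molecule such as a hormone, fatty acid, bile acid or drug fills their pocket. Many pair with a retinoid X receptor, and several recruit NCoR with its histone deacetylase complex when no ligand is bound, which keeps target genes low. In liver the family governs fat oxidation, drug and bile acid handling, glucose output and the daily rhythm of metabolism, while several steroid and orphan receptors are best known from gonad, adrenal, brain or retina. The comparisons ask how the RNA of these receptors differed with the corepressor mutation and with thyroid state.

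The stretches upstream of 4 genes that carry the results below are shown because these expressed genes passed the test in at least 1 comparison of the design. Rora passed it too, but its window lies inside the annotated gene and is not printed. The same holds for a second window of Esr1, so the Esr1 stretch shown belongs to 1 annotated start only. Pgr, which also passed, is left out as its signal was below the array median. Each is RefSeq sequence of GRCm38.p6, written 5′ to 3′ on the gene's own strand, from up to 250 bases before an annotated transcript start and cut to the part that lies outside the annotated gene. It ends 37 bases before the start for Nr1i3, 26 for Nr1i2, and 1 base before it for Esr1 and Ppard. Capitals mark matches to CACGTG (the E-box), GGGCGG (the GC box) or CCAAT (the CCAAT box, read as ATTGG where it lies on the opposite strand).
Nr1i3, chr1:171213720-171213933, plus strand: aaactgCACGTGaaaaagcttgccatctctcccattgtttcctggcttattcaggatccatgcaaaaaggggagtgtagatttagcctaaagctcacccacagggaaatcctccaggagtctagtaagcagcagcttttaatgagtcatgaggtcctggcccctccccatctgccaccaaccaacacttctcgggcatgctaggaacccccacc
Nr1i2, chr16:38294850-38295074, minus strand: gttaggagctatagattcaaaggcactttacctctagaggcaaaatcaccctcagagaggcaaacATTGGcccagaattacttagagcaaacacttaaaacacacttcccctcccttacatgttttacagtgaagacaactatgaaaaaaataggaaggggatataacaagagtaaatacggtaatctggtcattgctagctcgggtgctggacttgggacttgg
Esr1, chr10:4611739-4611988, plus strand: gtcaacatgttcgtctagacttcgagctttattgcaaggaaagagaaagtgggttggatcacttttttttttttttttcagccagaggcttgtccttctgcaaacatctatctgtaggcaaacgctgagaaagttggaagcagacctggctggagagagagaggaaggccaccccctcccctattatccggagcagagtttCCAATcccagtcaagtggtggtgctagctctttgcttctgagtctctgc
Ppard, chr17:28232504-28232753, plus strand: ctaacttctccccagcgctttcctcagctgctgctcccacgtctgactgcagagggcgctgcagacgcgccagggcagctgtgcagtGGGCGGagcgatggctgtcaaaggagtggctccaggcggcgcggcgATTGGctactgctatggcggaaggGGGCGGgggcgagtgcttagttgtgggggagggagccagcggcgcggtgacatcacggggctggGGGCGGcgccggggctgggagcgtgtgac
Nr1i3 held 1 E-box, 244 bases upstream of the start, a motif found in 6.02% of 32851 mouse promoter windows of 250 bases. Ppard held 3 GC boxes at 163, 93 and 29 bases and a CCAAT box on the opposite strand at 117 bases. The CCAAT box of Esr1 lay 49 bases upstream and that of Nr1i2 lay 185 bases upstream on the opposite strand. Windows were found for 30 of the 33 genes, 46 windows in all. Receptor half-sites were searched on both strands in 3 spellings and were in none of the 4 stretches printed. AGGTCA, the consensus, was in 10.9% of the 46 windows and 14.02% of all. GGGTCA was in 15.2% and 11.6%. AGTTCA was in 13.04% and 11.8%. At least 1 of the 3 was in 28.3% and 32.9%. GC boxes were in 47.8% of the 46 and 32.7% of all, CCAAT boxes in 37.0% and 33.8%, and TATAAA in 8.70% and 12.4%. The median GC content was 59.6% against 52.4%. A match describes letters in a window and shows no binding.

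Of the 33 genes, 23 had a mean above the mean array median of 4.23 log2, the line used here to separate expressed from silent clusters, and 10 lay below it. Hnf4a (mean 9.77), Nr1i3 (9.75), Rxra (8.69), Ppara (8.49), Rora (7.98) and Nr1i2 (7.87) had the highest signals. Signals of different clusters depend on their probes, so this order is one of signal and not of RNA abundance. The next 16 expressed genes ran from Nr2f6 (7.46), Nr3c1 (7.34) and Nr2f2 (7.24) down to Rxrg (5.24), Nr5a1 (4.99) and Rarg (4.98). Nr4a2 lay just above the line at 4.32 and exceeded its own array's median on 8 of 12 arrays, while Rarg exceeded it on 12. Just below the line were Nr2f1 at 3.69 and Esr2 at 3.51, which exceeded it on 0 arrays. The other genes below it were Esrrb (3.22), Rorb (2.86), Vdr (2.83), Nr2e1 (2.81), Pgr (2.79), Nr4a3 (2.56), Nr0b1 (2.40) and Hnf4g (2.34). Over the 12 arrays Esr1 spanned 2.06 log2 units, Ppard 1.76 and Nr1i3 1.68, against 0.36 for Hnf4g and 0.40 for Nr6a1. The line is not a detection limit. By it the expressed set held both xenobiotic sensors, both PPAR genes listed, the glucocorticoid receptor and all 3 RXR genes. The silent set held the receptors for vitamin D and progesterone.

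**Figure D1:**
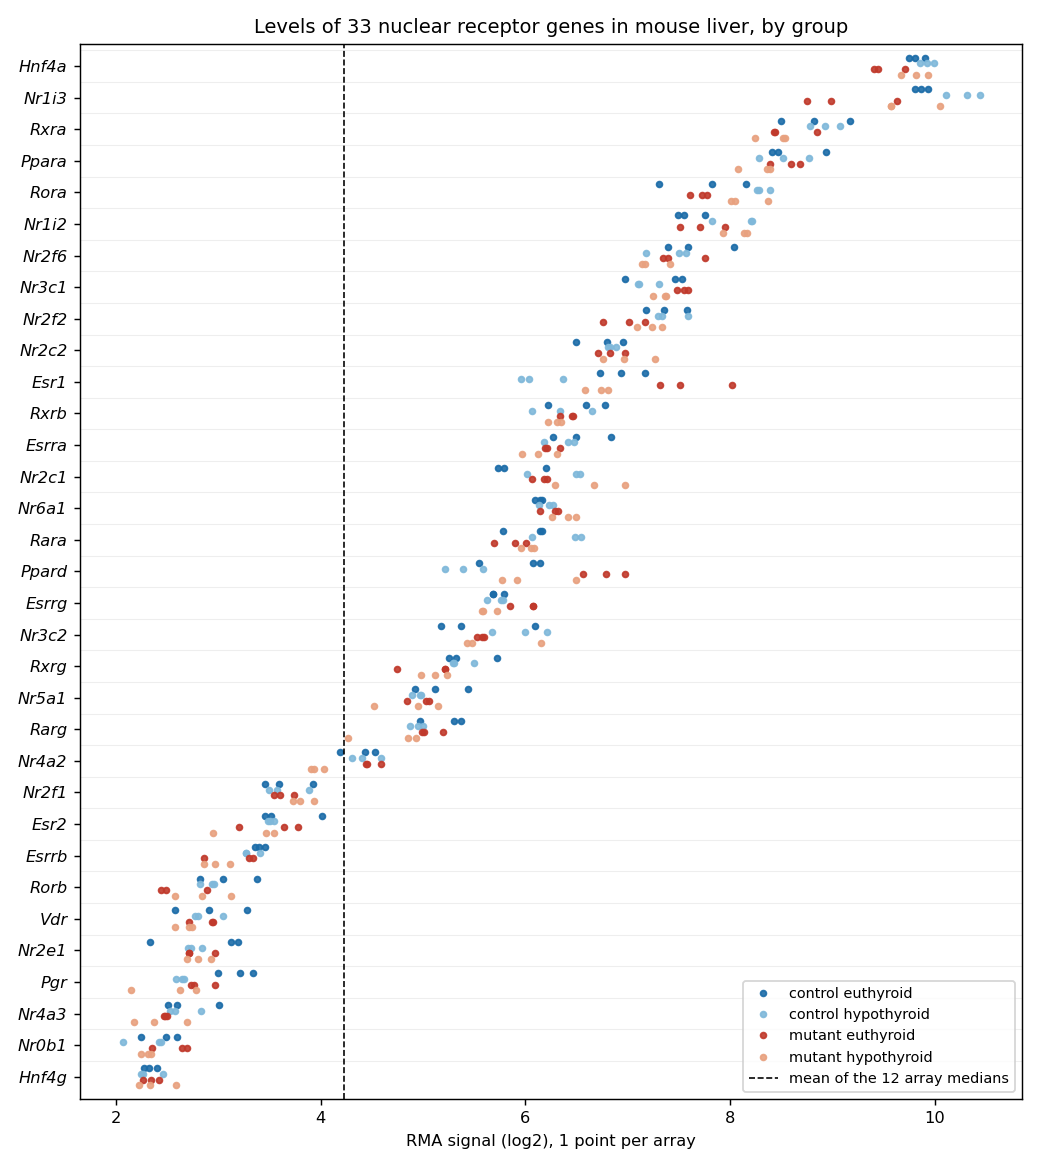
RMA signal (log2, horizontal axis) of 33 nuclear receptor genes (rows, ordered by mean), with 1 point per array coloured by group and the mean of the array medians as a dashed line. The 23 genes above the line start with Hnf4a at a mean of 9.77 and end with Nr4a2 at 4.32; the points of Esr1, Ppard and Nr1i3 spread most.

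Most of these genes did not pass the test in the comparisons of the design. In the linear model over all 12 arrays (limma, Benjamini-Hochberg over 21789 clusters, called at an adjusted p under 0.05), 3 of 33 were called for the mutation averaged over both thyroid states, beside 1.14% of all clusters. They were Ppard and Esr1, higher in mutant livers (0.904% of all clusters were called higher), and Nr1i3, lower (0.234%). For hypothyroidism averaged over both genotypes 6 of 33 were called, beside 6.04% of all clusters: Rora, Nr1i2 and Nr1i3 were higher (4.18% of all clusters) and Esr1, Ppard and Pgr lower (1.87%). Expressed clusters were called more often in both comparisons. For hypothyroidism 9.72% of 12451 clusters above the array median were called and 1.15% of 9338 below it. For the mutation the shares were 1.89% and 0.139%. Of the 33 genes, 27 were called in none of the 7 comparisons of the design.

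Within a single state the counts were smaller. For the mutation 0 of 33 were called in euthyroid mice (0.129% of all clusters) and 0 in hypothyroid mice (0.262%). At an unadjusted p under 0.05 in limma the counts were 9 of 33 (27.3%, beside 8.13% of all clusters) and 7 of 33 (21.2%, beside 10.4%). With quantile normalization and with an intensity trend in the variance the counts were 0 as well. For hypothyroidism Esr1 was the 1 gene called in control mice (1.11% of all clusters) and also the 1 called in mutant mice (1.11%). The 3 mutant arrays lay wholly on 1 side of the 3 controls for 10 genes in euthyroid mice, 3 higher and 7 lower, beside 10.4% of all clusters (5.05% higher and 5.35% lower), and for 8 genes in hypothyroid mice, 2 higher and 6 lower, beside 22.5% (12.4% and 10.2%). Hypothyroid and euthyroid arrays did not overlap for 5 genes in controls (16.7% of all clusters) and 10 in mutants (25.7%). With the within-array SD as a covariate, 0 of 33 were called in each of the 7 comparisons of the design. That SD moved with the groups, so the covariate can take up group differences in any cluster. The share of all clusters called with it is not given here, so the 0 cannot be read as particular to these genes. Of the 9 calls in the averaged comparisons, the fall of Esr1 with hypothyroidism was the 1 kept both when adjusting over every cluster of the table and with a fold limit of 1.2.

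**Figure D2:**
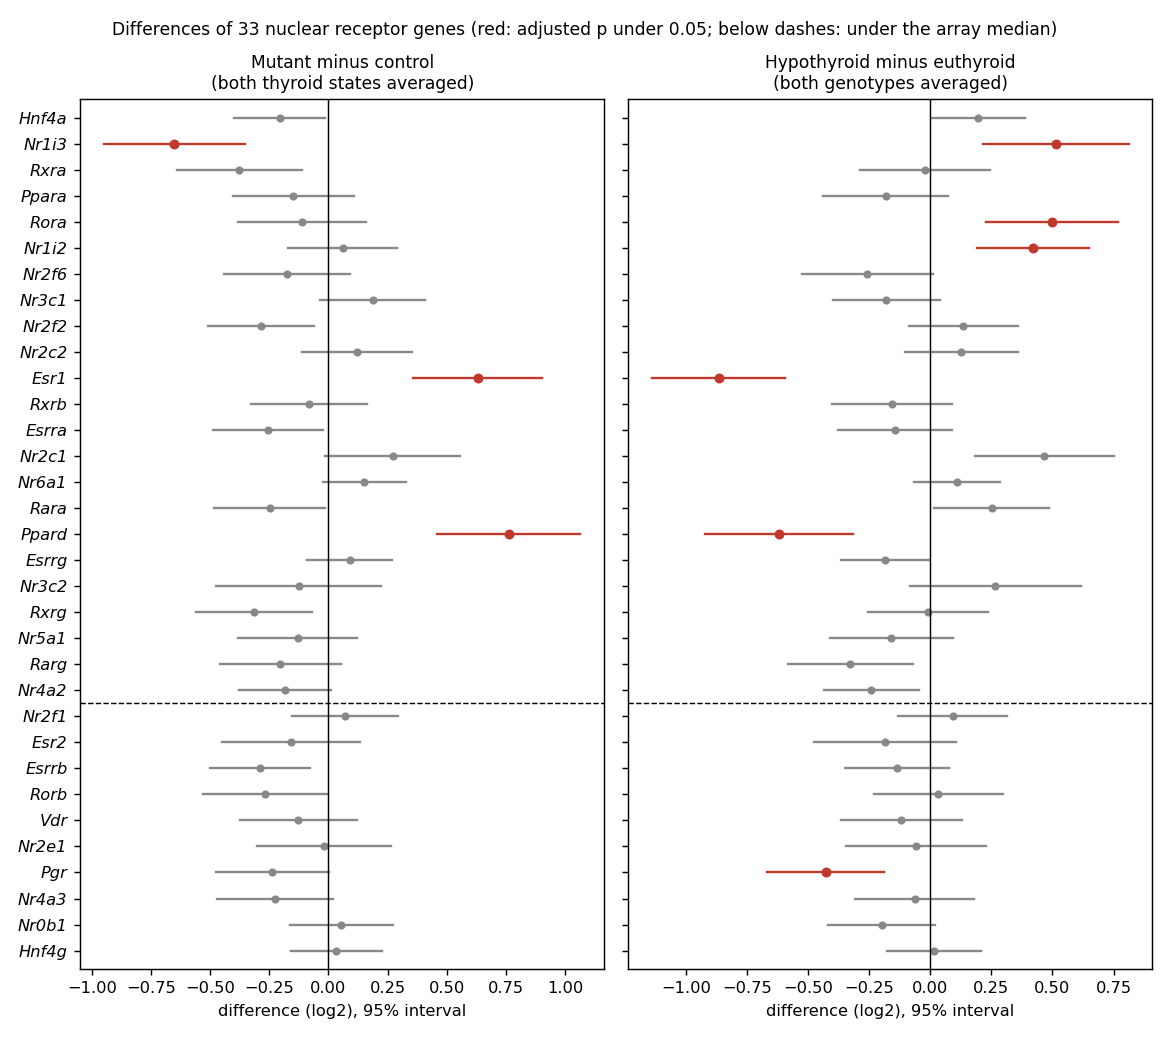
Differences (log2, horizontal axes) of 33 nuclear receptor genes in rows, mutant minus control on the left and hypothyroid minus euthyroid on the right, each averaged over the other factor, with 95% intervals from the limma model. Red points are the genes called, 3 on the left and 6 on the right, and genes under the dashed line had a mean below the array median.

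Among the steroid receptors, Esr1, the main estrogen receptor of liver, differed with both factors. Its log2 signals were 6.94, 6.73 and 7.17 in control euthyroid, 5.96, 6.37 and 6.03 in control hypothyroid, 7.51, 7.32 and 8.02 in mutant euthyroid and 6.58, 6.81 and 6.74 in mutant hypothyroid livers. Every hypothyroid array lay below every euthyroid array of its genotype, and every mutant array above every control array of its thyroid state. Group means were 6.95 ± 0.22, 6.12 ± 0.22, 7.61 ± 0.36 and 6.71 ± 0.12 (SD, n = 3 each, in the order above). Averaged over genotypes Esr1 was 1.82-fold lower in hypothyroid livers (log2 difference -0.87, SE 0.13, limma adjusted p = 0.000988). It fell by 0.83 in controls (SE 0.18, adjusted p = 0.0377) and by 0.90 in mutants (SE 0.18, adjusted p = 0.0238). Averaged over thyroid states it was 1.55-fold higher in mutants (0.63, SE 0.13, adjusted p = 0.0273). In whole liver, fewer cells of a type and less RNA per cell cannot be told apart.

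The averaged fall of Esr1 in hypothyroid livers was kept without each of the 12 arrays in turn (adjusted p 0.000828 to 0.00447), and was lost with the array SD as a covariate (0.0957). The averaged mutant difference was lost without control euthyroid 14, control hypothyroid 17 or 20, mutant euthyroid 2 or 4, or mutant hypothyroid 6 or 7 (highest adjusted p 0.0928), and with quantile normalization (0.0515). The fall in controls alone was lost without control euthyroid 15, control hypothyroid 17 or 20, mutant euthyroid 2 or any mutant hypothyroid array (0.173), and the fall in mutants alone without mutant euthyroid 2 or 4 or any mutant hypothyroid array (0.112). Markers of Kupffer cells and macrophages had averaged differences in the same directions as Esr1. All 10 listed were measured and lay above the array median, and their summed signal ranged over 9.42 to 9.66 log2 in control euthyroid, 8.90 to 9.04 in control hypothyroid, 9.79 to 10.87 in mutant euthyroid and 8.94 to 9.85 in mutant hypothyroid livers. Adgre1, a macrophage surface receptor, was called higher in mutants (0.66 log2), and Clec4f (-0.98), C1qc (-0.85) and Cd5l (-0.85), a lectin, a complement subunit and a scavenger receptor family protein, were called lower in hypothyroid livers. For each factor the rest of the list was not called. Of all clusters 0.904% were called higher in mutants and 1.87% lower in hypothyroid livers. The summed signal in mutant hypothyroid livers overlapped that of both control groups. The part of these markers in the Esr1 result was not tested.

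**Figure D3:**
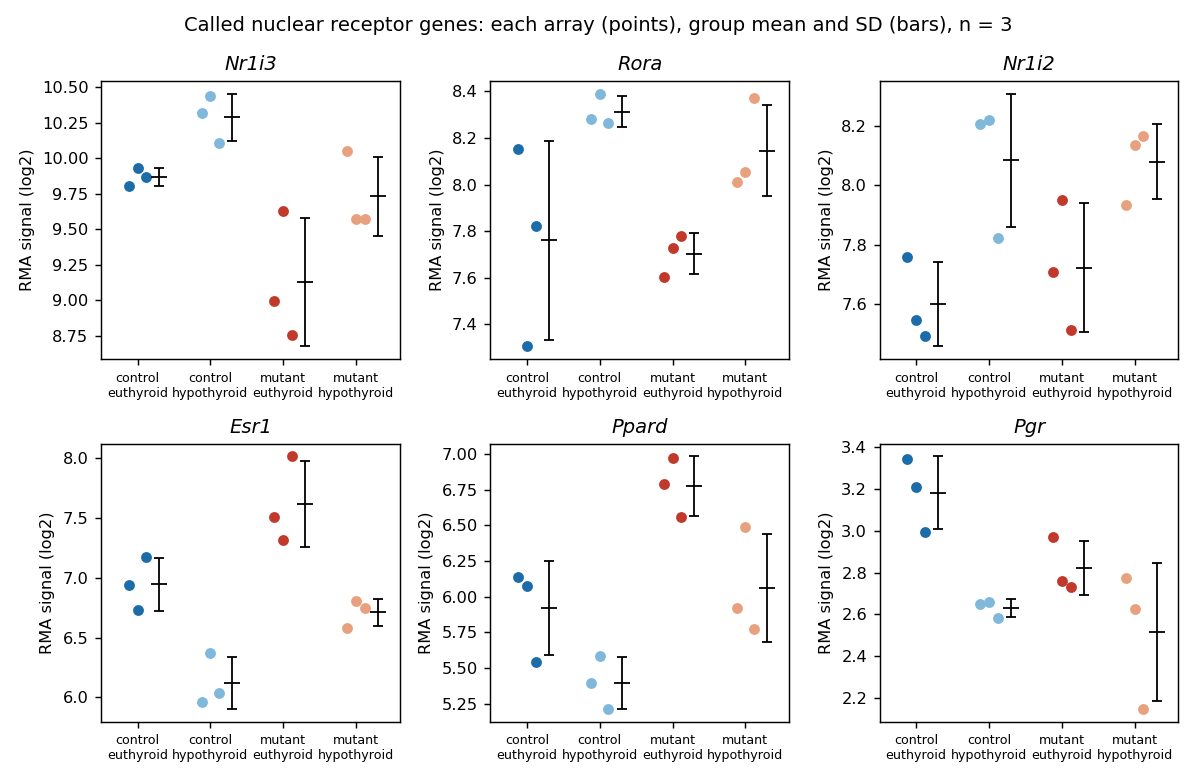
RMA signal (log2, vertical axes, scaled per gene) of the 6 genes called in a comparison of the design, with 1 point per array in each of 4 groups and the group mean with its SD as bars (n = 3). Esr1 and Ppard stand highest in mutant euthyroid livers and lowest in control hypothyroid livers, and Nr1i3 shows the opposite order.

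Pgr, the progesterone receptor, was the 1 silent gene called. Its signals were 3.34, 3.21 and 2.995 in control euthyroid, 2.65, 2.66 and 2.58 in control hypothyroid, 2.97, 2.76 and 2.73 in mutant euthyroid and 2.78, 2.63 and 2.15 in mutant hypothyroid livers. Control euthyroid arrays were the highest of the 4 groups, and mutant groups overlapped each other. The averaged hypothyroid difference was -0.43 (SE 0.11, limma adjusted p = 0.0367). Clusters below the array median shifted down as a whole in this comparison: 6847 of 9338 were lower in hypothyroid livers, with a median of -0.08, against 0.07 for those above it. The call was lost with median centring, with quantile normalization, and without any 1 array other than control euthyroid 13 or 15, mutant euthyroid 3 or mutant hypothyroid 5 (adjusted p 0.0243 to 0.0927 over the 12).

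The corticosteroid receptors were not called. Nr3c1, the glucocorticoid receptor, measured 7.46, 6.97 and 7.53 in control euthyroid and 7.31, 7.11 and 7.10 in control hypothyroid livers. In mutant euthyroid livers it measured 7.48, 7.59 and 7.55 and in mutant hypothyroid livers 7.37, 7.25 and 7.37. The mutant euthyroid arrays lay above the mutant hypothyroid ones, and the control groups overlapped. Its averaged differences were 0.19 for the mutation (SE 0.10, limma adjusted p = 0.377) and -0.18 for hypothyroidism (SE 0.10, adjusted p = 0.295).

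Of 10 glucocorticoid-responsive genes listed, 3 were nevertheless called higher in hypothyroid livers: Fkbp5, a chaperone of the receptor (1.08 log2, SE 0.14, limma adjusted p = 0.000309), the kinase gene Sgk1 (0.70, adjusted p = 0.0398) and the zinc finger gene Zbtb16 (1.34, adjusted p = 0.0241). Pck1, a gluconeogenic enzyme, was called lower in mutants (-0.83, adjusted p = 0.0338). The list's median was 0.76 for hypothyroidism and -0.47 for the mutation, beside -0.02 and -0.01 over all clusters. Of all clusters 4.18% were called higher in hypothyroid livers and 0.234% lower in mutants. This list and the target lists below were chosen with earlier results of these data known.

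Nr3c2, the mineralocorticoid receptor, measured 5.18, 5.37 and 6.09 in control euthyroid, 6.21, 5.67 and 5.99 in control hypothyroid, 5.53, 5.58 and 5.60 in mutant euthyroid and 5.43, 5.48 and 6.15 in mutant hypothyroid livers. All 4 groups overlapped except the mutant euthyroid and control hypothyroid ones. Its largest difference, 0.41 in controls (SE 0.23), did not pass the test (limma adjusted p = 0.473). Esr2, the second estrogen receptor gene, had group means of 3.32 to 3.66.

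Ppard, a fatty acid sensor found in many tissues, had its highest group mean in mutant euthyroid and its lowest in control hypothyroid livers, as Esr1 did. Its signals were 6.14, 6.07 and 5.54 in control euthyroid, 5.40, 5.58 and 5.21 in control hypothyroid, 6.79, 6.98 and 6.56 in mutant euthyroid and 5.92, 6.49 and 5.77 in mutant hypothyroid livers. The mutant arrays exceeded the control arrays in both thyroid states, while the euthyroid and hypothyroid controls overlapped through replicate 15. Averaged over thyroid states Ppard was 1.69-fold higher in mutants (log2 difference 0.76, SE 0.14, 95% interval 0.46 to 1.06, limma adjusted p = 0.0169). Averaged over genotypes it was 1.54-fold lower in hypothyroid livers (-0.62, SE 0.14, adjusted p = 0.0203). The first call was lost without control hypothyroid 17 (0.0548), and the second without control hypothyroid 20 or mutant hypothyroid 7 (up to 0.0598). The averaged differences of the macrophage markers above had the same directions as those of Ppard, and their part was not tested.

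Ppara, the receptor that drives fat oxidation in fasting liver, did not pass the test in any comparison. It measured 8.41, 8.47 and 8.94 in control euthyroid, 8.52, 8.77 and 8.28 in control hypothyroid, 8.60, 8.69 and 8.40 in mutant euthyroid and 8.08, 8.39 and 8.36 in mutant hypothyroid livers. The controls overlapped, and the mutant hypothyroid group had the lowest mean, 8.28. The averaged mutant difference was -0.15 (SE 0.12, 95% interval -0.41 to 0.11, limma adjusted p = 0.559).

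Genes known as PPARA targets were called in the same livers. Of 14 measured, 4 were called higher in mutants: Ehhadh, the peroxisomal bifunctional enzyme (1.43 log2, SE 0.15, limma adjusted p = 0.000237), Pdk4, a brake on glucose oxidation (1.70, adjusted p = 0.00342), Acot1, an acyl-CoA thioesterase (0.79, adjusted p = 0.0197), and Acaa1b, a peroxisomal thiolase (0.75, adjusted p = 0.0258). None was called lower, and the list's median was 0.20. Of all clusters 0.904% were called higher in mutants and 4.18% higher in hypothyroid livers. Acadm, the medium-chain acyl-CoA dehydrogenase, was the 1 called higher in hypothyroid livers (0.54, adjusted p = 0.00547).

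Nr1i3 encodes CAR, which switches on drug-metabolising enzymes, and its cluster was the expressed one called lower in mutants. Its signals were 9.80, 9.93 and 9.87 in control euthyroid, 10.32, 10.44 and 10.11 in control hypothyroid, 8.99, 9.63 and 8.76 in mutant euthyroid and 10.05, 9.57 and 9.57 in mutant hypothyroid livers. Mutant arrays lay below control arrays in both states, and replicate 3 was the high one of the mutant euthyroid arrays. Averaged over thyroid states Nr1i3 was 1.57-fold lower in mutants (log2 difference -0.65, SE 0.14, limma adjusted p = 0.0365). Averaged over genotypes it was 1.43-fold higher in hypothyroid livers (0.51, SE 0.14, adjusted p = 0.0429). The first call was lost with median centring (adjusted p = 0.0614) and the second with quantile normalization (0.153). The first was kept without control euthyroid 13, control hypothyroid 20, mutant euthyroid 3 or mutant hypothyroid 5 and lost without any other (0.00631 to 0.104), and the second was kept without control euthyroid 13 or mutant euthyroid 3 (0.00656 to 0.104).

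Nr1i2, which encodes the xenobiotic sensor PXR, shared the rise with hypothyroidism. It measured 7.76, 7.55 and 7.49 in control euthyroid, 8.21, 8.22 and 7.82 in control hypothyroid, 7.71, 7.95 and 7.51 in mutant euthyroid and 7.94, 8.14 and 8.17 in mutant hypothyroid livers. Hypothyroid arrays were the higher ones in controls without overlap, and in mutants they overlapped by 1 array. The averaged difference was 0.42 (SE 0.11, 1.34-fold, limma adjusted p = 0.0329), and for the mutation it was 0.06. The call was kept without control euthyroid 13, control hypothyroid 20, mutant euthyroid 3 or mutant hypothyroid 5, and lost without any other array (0.0140 to 0.0885) and with quantile normalization (0.31 log2, adjusted p = 0.0843).

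Of 12 measured genes known to respond to CAR or PXR, 2 were called higher in mutants, where Nr1i3 was lower. They were Ces2a, a carboxylesterase (1.47 log2, SE 0.10, limma adjusted p = 2.8e-06), and Cyp3a11, the classical PXR-induced cytochrome (0.74, adjusted p = 0.0151). The mutant difference of Cyp3a11 was 0.08 in euthyroid mice (adjusted p = 0.930) and 1.39 in hypothyroid mice (adjusted p = 0.00521), and the interaction was not called (1.305, adjusted p = 1.00). In controls Cyp3a11 was called lower with hypothyroidism (-0.92, adjusted p = 0.0293). In hypothyroid livers Cyp2c29, another drug-metabolising cytochrome, and the bile canalicular pump gene Abcc2 were called higher (0.57, adjusted p = 0.0107, and 0.44, adjusted p = 0.0458). Cyp2b9 had the largest difference of the list, -2.94 with hypothyroidism, with an SE of 1.44 and an adjusted p of 0.220. The list's medians were 0.22 for the mutation and -0.11 for hypothyroidism. Of all clusters 0.904% were called higher in mutants and 4.18% higher in hypothyroid livers, each averaged.

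Rora, a clock-linked activator, was higher in hypothyroid livers. It measured 8.15, 7.31 and 7.82 in control euthyroid, 8.28, 8.39 and 8.27 in control hypothyroid, 7.61, 7.73 and 7.78 in mutant euthyroid and 8.01, 8.05 and 8.37 in mutant hypothyroid livers. The hypothyroid arrays lay above the euthyroid arrays in each genotype. The averaged difference was 0.50 (SE 0.13, 1.41-fold, limma adjusted p = 0.0320), kept without control euthyroid 13 or 14, mutant euthyroid 3 or mutant hypothyroid 5 and lost without any other array (0.00412 to 0.0924). For the mutation it was -0.11 (SE 0.13).

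Rorb, a retinal and neural ROR gene, was silent. It measured 3.05, 3.38 and 2.82 in control euthyroid, 2.94, 2.83 and 2.95 in control hypothyroid, 2.89, 2.44 and 2.49 in mutant euthyroid and 3.13, 2.84 and 2.57 in mutant hypothyroid livers. Its groups overlapped in each of the 4 comparisons within a state or genotype, with the largest difference -0.48 for the mutation in euthyroid mice (limma adjusted p = 0.553).

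Of 6 measured ROR-linked genes, 2 were called lower in hypothyroid livers and 2 higher in mutants. Elovl3, a fatty acid elongase with a daily rhythm, was lower in hypothyroid livers (-2.71 log2, SE 0.31, limma adjusted p = 0.000107), as was Cyp7b1, an oxysterol hydroxylase (-1.13, adjusted p = 0.00283). Cyp7b1 was higher in mutants (1.17, adjusted p = 0.00756), as was Sult1e1, the estrogen sulfotransferase (3.16, SE 0.52, adjusted p = 0.00786). The list's medians were 1.04 for the mutation and -0.37 for hypothyroidism. Of all clusters 1.87% were called lower in hypothyroid livers and 0.904% higher in mutants.

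The retinoid X receptors, the common partners of many receptors here, were lower in mutants by amounts that did not pass the test. Rxra measured 8.50, 9.18 and 8.82 in control euthyroid, 9.08, 8.93 and 8.78 in control hypothyroid, 8.44, 8.85 and 8.43 in mutant euthyroid and 8.24, 8.52 and 8.54 in mutant hypothyroid livers. The mutant and control arrays did not overlap in the hypothyroid state and did in the euthyroid state. Its averaged mutant difference was -0.38 (SE 0.12, limma adjusted p = 0.158). Rxrg had group means of 5.43, 5.37, 5.06 and 5.11 in the order above, and it was the 1 gene of the 33 whose 6 mutant arrays all lay below its 6 control arrays (beside 1.05% of all clusters without overlap, 0.404% lower), with a difference of -0.31 (SE 0.11, adjusted p = 0.191). Rxrb ranged between group means of 6.29 and 6.53.

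Rara, a retinoic acid receptor gene, had group means of 6.03, 6.37, 5.87 and 6.03, and Rarg 5.22, 4.94, 5.07 and 4.69. The largest averaged differences were 0.25 for Rara and -0.33 for Rarg with hypothyroidism (limma adjusted p = 0.175 and 0.111). Vdr group means were 2.68 to 2.92. Of 8 measured retinoic acid target genes, 2 were called higher in mutants: Cyp26a1, which degrades retinoic acid (2.01 log2, SE 0.44, adjusted p = 0.0389), and Rarres1 (1.77, adjusted p = 0.00108). Rarres1 was called lower in hypothyroid livers (-1.31, adjusted p = 0.0030). Of all clusters 0.904% were called higher in mutants and 1.87% lower in hypothyroid livers. Neither of 2 measured vitamin D target genes, Trpv6 and S100g, was called.

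Hnf4a, which maintains hepatocyte identity, had the highest signal and a range of 0.58 over the 12 arrays. It measured 9.80, 9.91 and 9.75 in control euthyroid, 9.92, 9.995 and 9.86 in control hypothyroid, 9.41, 9.71 and 9.45 in mutant euthyroid and 9.94, 9.82 and 9.67 in mutant hypothyroid livers. Mutant euthyroid arrays lay below control euthyroid arrays, and the other neighbouring groups overlapped. The averaged differences were -0.21 for the mutation (SE 0.09, limma adjusted p = 0.267) and 0.20 for hypothyroidism (SE 0.09, adjusted p = 0.193). Of 10 HNF4A target genes measured, 0 were called for the mutation, and Tdo2, which breaks down tryptophan (0.64, adjusted p = 0.000815), and Ttr, the thyroxine carrier transthyretin (0.32, adjusted p = 0.0259), were called higher in hypothyroid livers. Of all clusters 1.14% were called for the mutation and 4.18% higher in hypothyroid livers. Hnf4g, the paralogue of Hnf4a, was silent with group means of 2.32 to 2.38.

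Nr2c1, a testicular orphan receptor, came nearest to the threshold among the genes not called in the comparisons of the design. It measured 6.20, 5.79 and 5.73 in control euthyroid, 6.49, 6.54 and 6.02 in control hypothyroid, 6.07, 6.22 and 6.18 in mutant euthyroid and 6.29, 6.67 and 6.98 in mutant hypothyroid livers. Hypothyroid arrays were higher without overlap in mutants, and overlapped in controls. The averaged hypothyroid difference was 0.47 (SE 0.13, limma adjusted p = 0.0519). Its paralogue Nr2c2 had group means of 6.75 to 6.999.

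Nr2f2, a COUP orphan receptor, measured 7.58, 7.18 and 7.35 in control euthyroid, 7.58, 7.29 and 7.33 in control hypothyroid, 6.76, 7.17 and 7.02 in mutant euthyroid and 7.10, 7.24 and 7.33 in mutant hypothyroid livers. The mutant euthyroid arrays lay just below the control euthyroid ones, 7.17 against 7.18 at the nearest, with a difference of -0.39 (SE 0.15, limma adjusted p = 0.569). Its relatives Nr2f6 and Nr2f1 had group means of 7.24 to 7.67 and 3.63 to 3.82.

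The estrogen-related receptors, which drive mitochondrial genes, were not called. Esrra had group means of 6.53, 6.36, 6.25 and 6.14 and Esrrg 5.72, 5.73, 6.002 and 5.63. The silent Esrrb measured 3.46, 3.36 and 3.40 in control euthyroid, 3.41, 3.27 and 3.27 in control hypothyroid, 3.30, 2.86 and 3.34 in mutant euthyroid and 2.86, 2.96 and 3.12 in mutant hypothyroid livers. Its mutant arrays lay below the controls of the same state, and the averaged difference was -0.29 (SE 0.10, limma adjusted p = 0.174).

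Of 7 ERR target genes, Idh3a, a subunit of isocitrate dehydrogenase, was called higher in mutants (0.67 log2, limma adjusted p = 0.0113) and lower in hypothyroid livers (-0.94, adjusted p = 0.000262). Acadm, given above, and the coactivator gene Ppargc1a were called higher in hypothyroid livers (Ppargc1a 0.97, adjusted p = 0.00261). Of all clusters 0.904% were called higher in mutants, and 4.18% higher and 1.87% lower in hypothyroid livers.

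Nr4a2, an immediate-early orphan receptor, showed the largest difference between the 2 mutant effects. It measured 4.19, 4.53 and 4.43 in control euthyroid, 4.31, 4.59 and 4.41 in control hypothyroid, 4.59, 4.44 and 4.45 in mutant euthyroid and 3.94, 3.91 and 4.03 in mutant hypothyroid livers. The mutant hypothyroid arrays were the lowest 3 of the 12, and the other groups overlapped. These 3 signals lay below the medians of their own arrays, 4.19, 4.17 and 4.16. Clusters below the array median were mostly lower in mutants in the hypothyroid state (6268 of 9338, median -0.07). The mutant effect was 0.11 in euthyroid and -0.48 in hypothyroid mice, and the interaction was -0.59 (SE 0.18, unadjusted p = 0.0055, adjusted p = 1.00 in limma). No gene of the 33 and none of the 21789 clusters was called for the interaction; 2 of the 33, Nr4a2 and Esrrg (-0.38), had an unadjusted p under 0.05, beside 2.75% of all clusters.

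The remaining orphans are best known from endocrine, germ-line and neural tissue. Nr0b1, which restrains steroidogenic receptors, measured 2.49, 2.25 and 2.59 in control euthyroid, 2.42, 2.07 and 2.44 in control hypothyroid, 2.69, 2.35 and 2.64 in mutant euthyroid and 2.34, 2.25 and 2.32 in mutant hypothyroid livers. The mutant hypothyroid arrays lay below the mutant euthyroid ones, with a difference of -0.26 (SE 0.15, limma adjusted p = 0.390), and the other groups overlapped. Nr5a1, the steroidogenic factor gene, had group means of 4.87 to 5.16, the germ cell factor gene Nr6a1 6.13 to 6.39, the neural gene Nr2e1 2.76 to 2.88, and Nr4a3 2.41 to 2.70.

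The mutant effects measured in euthyroid and in hypothyroid mice come from different arrays, so they can be set side by side. Across the 33 genes they had the same sign in 26 (78.8%), beside 66.5% of all clusters, and their Pearson correlation was 0.77, a description across genes, which are not independent. It was 0.82 over the 23 expressed and 0.40 over the 10 silent genes. Beside these it was 0.55 over all clusters, 0.63 over the expressed ones and 0.19 over those below the array median. The sign was the same in 82.6% of the 23 expressed genes, beside 74.1% of expressed clusters. The hypothyroid effects in controls and in mutants had the same sign in 25 of 33 (75.8%, beside 72.0% of all clusters) with a correlation of 0.81, beside 0.70 over all clusters and 0.76 over the expressed ones. In the left plot Ppard, Esr1 and Nr1i3 lay farthest from 0, and in the right plot Esr1 and Ppard did.

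**Figure D4:**
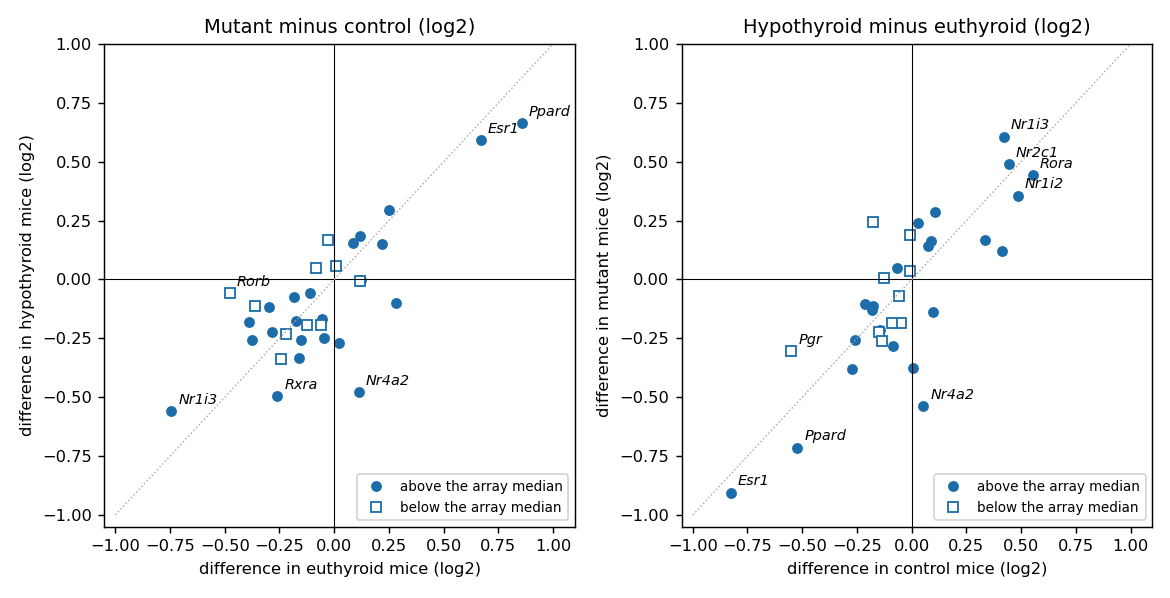
Left, mutant minus control (log2) of 33 nuclear receptor genes in euthyroid (horizontal) against hypothyroid mice (vertical); right, hypothyroid minus euthyroid in controls (horizontal) against mutants (vertical). Filled circles are the 23 genes above the array median and open squares the 10 below it, and the dotted line marks equal differences; 26 points on the left and 25 on the right have the same sign on both axes.

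Both extremes of the design were compared after these values had been seen, so the tests are descriptive of the same arrays. Between mutant euthyroid and control hypothyroid livers 3 of 33 were called (2.64% of all clusters). Esr1 was 2.82-fold higher in the mutants (log2 difference 1.495, SE 0.18, limma adjusted p = 0.000219), Ppard 2.60-fold higher (1.38, SE 0.20, adjusted p = 0.00109) and Nr1i3 2.24-fold lower (-1.16, SE 0.20, adjusted p = 0.00353). All 3 were kept under every alternative run and without each array in turn. These fits used the same arrays and a comparison made after the values were seen, so they add no independent support. Between mutant hypothyroid and control euthyroid livers, where the 2 averaged effects of these 3 genes run against each other, 2 of 33 were called (8.33%): Nr2c1 higher (0.74, SE 0.19, adjusted p = 0.0318) and Pgr lower (-0.67, SE 0.16, adjusted p = 0.0259). Nr2c1 was lost without control euthyroid 14 or 15 or mutant hypothyroid 6 or 7 (up to 0.151), and Pgr without control euthyroid 14 or mutant hypothyroid 6 or 7 (up to 0.120). Clusters below the array median, Pgr among them, shifted down as a whole here too. Of these, 6966 of 9338 were lower in mutant hypothyroid livers, with a median of -0.12.

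Of 12 other nuclear receptor genes measured, outside the set, Pparg, the adipogenic PPAR gene, was called higher in hypothyroid livers (1.18 log2, limma adjusted p = 0.000143). Nr4a1, an immediate-early relative of Nr4a2, was called higher in hypothyroid livers (1.47, adjusted p = 0.00437) and lower in mutants (-1.44, adjusted p = 0.0144). Its rise in controls, 2.68, exceeded that average. The interaction was called for none of these 12 genes and for no other cluster, so a difference between genotypes was not shown. For the mutation 0 of these 12 were called in euthyroid mice and 1, lower, in hypothyroid mice (0.129% and 0.262% of all clusters). For hypothyroidism 2 were called higher in controls and 1 in mutants (1.11% of all clusters called in each). Averaged, 4.18% of all clusters were called higher in hypothyroid livers and 0.234% lower in mutants. The 2 sister genes differed in pattern: in controls Nr4a1 rose by 2.68 with hypothyroidism while Nr4a2 differed by 0.05, and this contrast between genes was not tested. Markers of stellate, endothelial, bile duct and lymphoid cells gave 0 calls in both averaged comparisons.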

How the data were processed

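Total liver RNA of 12 samples was measured on 1 array each. Per the submitters' processing notes, the authors deposited log2 signals made with RMA; its version and options are not given there. The table held 35557 clusters and 0 missing values. Genes were named from the platform annotation, and 33 of 34 receptors matched RefSeq gene IDs. Only clusters with exactly 1 symbol (21789, for 19938 genes) were tested; 1621 with several and 12147 with none were not. Group means over all 12 arrays were fitted with limma 3.58.1 in R 4.3.3 (lmFit, eBayes, Benjamini-Hochberg; 8 residual and 6.83 prior degrees of freedom), checked on simulated data. With 3 arrays a group, precision is limited by their number. Values on every array are given for genes called, the 10 expressed and 4 silent genes with the largest differences, and 7 receptors best known in liver. The members and lists were chosen with earlier results of these data known. Alternatives were normalization, centring, filters, variance trend, array SD, fold limit and left-out arrays. No scan batch was given.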

Additional observations from a re-analysis of the deposited data

How the results depend on the processing

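Numbers of the 33 genes called changed with several choices. The shares of all clusters called under each alternative, left-out arrays included, are not given here. The counts below, taken alone, therefore cannot tell changes particular to these genes from changes over all clusters. Adjusting over every cluster of the table gave 0 for hypothyroidism in controls, 0 in mutants, 0 for the averaged mutation, 1 for averaged hypothyroidism and 0 for mutant hypothyroid against control euthyroid. The array SD as a covariate gave 0 in each of these 5. A fold limit of 1.2 gave 0, 0, 0, 1 and 0 in the same order. Without both outlying arrays (control euthyroid 14 and mutant hypothyroid 7) the counts were 0 for hypothyroidism in mutants, 1 for the averaged mutation, 1 for averaged hypothyroidism and 0 for mutant hypothyroid against control euthyroid. Quantile normalization gave 3 for averaged hypothyroidism, 2 for the averaged mutation (against 3), 4 for mutant euthyroid against control hypothyroid (against 3) and 1 for mutant hypothyroid against control euthyroid, and clusters above the array median gave 4 for the latter. The compared groups alone gave 0 for hypothyroidism in controls, a fit that has fewer arrays; it was not run for the averages and the interaction, which use all 4 groups, nor for the 2 added comparisons. For the other changes the cause was not tested.

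Leaving out 1 array at a time gave 0 to 1 called for the mutation in euthyroid mice, 0 in hypothyroid mice, 0 to 2 for hypothyroidism in controls and 0 to 2 in mutants. It gave 0 to 4 for the averaged mutation, 1 to 9 for averaged hypothyroidism, 0 for the interaction, 0 to 9 for mutant hypothyroid against control euthyroid and 3 to 4 for mutant euthyroid against control hypothyroid. The count of expressed genes was 22 where every array had to exceed the median and 19 above the 60th percentile, against 23. For the 16 called differences of single genes, 320 alternatives were run, of which 194 kept the call, 126 lost it and 0 reversed; for 16 named differences that were not called, 4 of 332 alternatives gained a call and 0 reversed. Each gene has 1 cluster, so the choice of cluster changed nothing. No paired analysis was possible because the groups share no replicate numbers. Signal over background limits the 10 genes below the array median most, and Pgr was not tested among clusters above it.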
